A study of Mus musculus with 5 samples.

Results

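A set of 6 genes that mark mesenchymal cells was examined for histone modifications in EpiSC9, a mouse epiblast stem cell line grown on irradiated fibroblast feeders. The genes were Col1a1, Col1a2, Col3a1, Thy1, Twist1 and Prrx1. Each was represented by a fixed window of 35 to 100 kb of mm9, and every peak of any mark that overlapped a window was taken. The 6 windows held 60 of the 156288 peaks deposited for the series. Chromatin immunoprecipitation followed by sequencing gave 1 library each for H3K4me1, H3K4me3, H3K27ac and H3K27me3, all from cells kept in FGF2 at 10 ng/ml, and the input library was not analysed here. All libraries share the line and the culture conditions, and no treated group, second cell line or culture of feeders alone was analysed here. No annotation of mm9 was used, so H3K4me3 peaks stand in for promoters and a peak in a window is not thereby assigned to the gene. With 1 library per mark no test could be made, and every value describes these libraries.

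Epiblast stem cells represent the primed state of pluripotency, before the epiblast gives rise to mesoderm and its derivatives. Col1a1 and Col1a2 encode the chains of type I collagen and Col3a1 the chain of type III collagen, all made in quantity by fibroblasts. Thy1 encodes a surface glycoprotein of fibroblasts, T cells and neurons, while Twist1 and Prrx1 encode transcription factors of embryonic mesenchyme. Of the marks, H3K4me3 is typical of promoters and H3K4me1 of enhancers and promoter flanks, and H3K27ac lies at promoters and enhancers in use. H3K27me3 is placed by Polycomb complexes, and its coincidence with H3K4me3, called bivalent, is common at silent developmental genes of pluripotent cells. Feeder fibroblasts that are harvested with the stem cells would add chromatin in which these genes may be in use. Whether each gene is in use in these feeders was not measured here. The share of feeder chromatin in each library was not measured.

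Of the 6 windows, 5 held H3K4me3, 5 held H3K4me1, 4 held H3K27me3 and 2 held H3K27ac. For comparison, the genome was divided into adjoining tiles of 52.5 kb, the median window width. Of these tiles 27.7% held H3K4me3, 47.2% held H3K4me1, 11.2% held H3K27me3 and 29.0% held H3K27ac. Tiles also cover stretches without genes, whereas the windows were drawn around genes. Among tiles that held H3K4me3, 27.5% also held H3K27me3 and 32.9% held no H3K27ac, as at Thy1, Twist1 and Prrx1. These 3 windows held H3K4me3 and H3K27me3 without H3K27ac. Of all 50294 tiles, 2036 (4.05%) held this combination, all of them among the 13941 tiles with H3K4me3. Thy1 met it narrowly: its H3K27me3 peak scored 50.86, where the lowest score of the list is 50. An H3K27ac peak also lay 5.04 kb beyond the Thy1 window. A further window, that of Col3a1, held no peak, as did 45.7% of the tiles. By covered length, H3K27me3 took up 7.07% of the 350.0 kb of windows against 0.468% of the genome, and H3K4me3 took up 5.06% against 1.27%. H3K4me1 covered 12.0% against 5.52%. H3K27ac was the exception, at 0.783% of the windows against 1.45% of the genome.

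**Figure D1:**
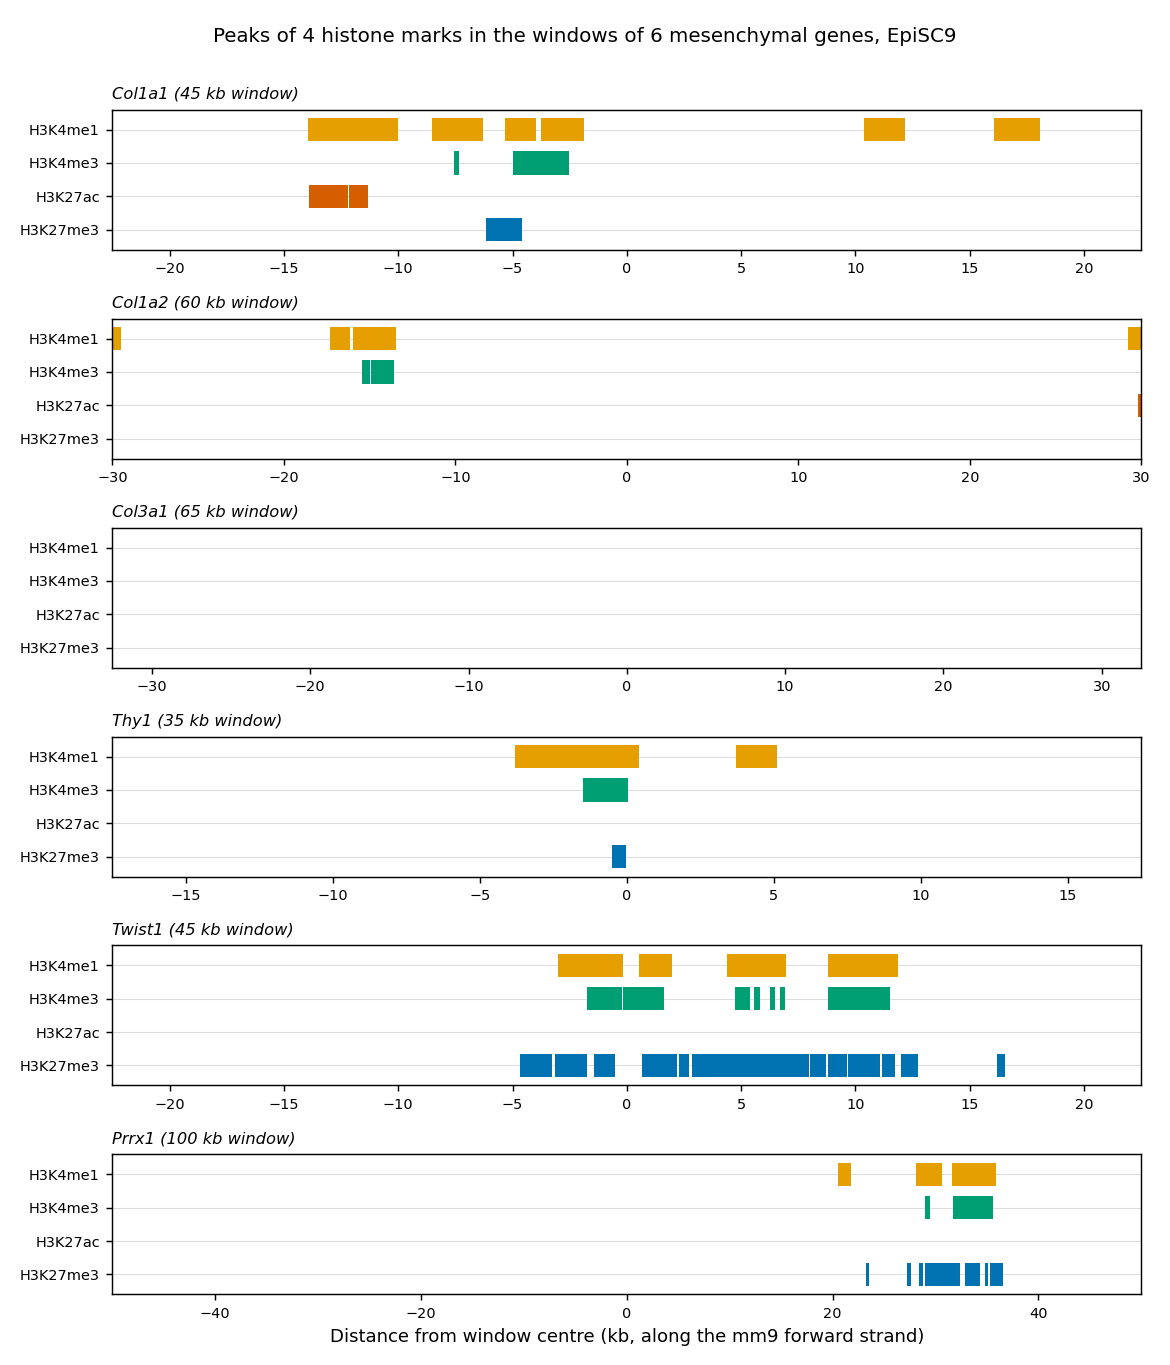
Position of every peak in the 6 gene windows. Each panel is 1 window, the horizontal axis is distance from the window centre in kb along the forward strand of mm9, each row is a mark and each block is a peak clipped at the window ends. H3K27me3 blocks fill much of the marked stretch at Twist1 and Prrx1, H3K27ac appears at Col1a1 and at the right end of Col1a2, and Col3a1 holds 0 peaks.

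The genes did not share these marks evenly. Twist1 held 26 of the 60 peaks, Prrx1 12, Col1a1 11, Col1a2 7 and Thy1 4, while Col3a1 held 0. The Twist1 and Prrx1 windows together accounted for most of the H3K27me3, with 62.1% and 29.7% of the covered length, and Col1a1 and Thy1 for 6.35% and 1.86%. Of the H3K27ac length, 93.8% lay in the Col1a1 window.

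The promoters themselves differ in sequence, and 3 of them are shown because their windows carried different marks. RefSeq sequences of GRCm38.p6 were matched for 4 of the 6 genes: Col1a2, Col3a1, Twist1 and Prrx1. The 250 bases before the start of each gene are given 5′ to 3′ on the strand of the gene, with CpG dinucleotides in capitals. Their positions belong to GRCm38 and cannot be set against the mm9 positions of the peaks. The Col3a1 promoter (chr1:45311288-45311537, forward strand), whose gene window held 0 peaks, contains 0 CpG; the Col1a2 promoter (chr6:4505368-4505617, forward strand), whose window held H3K4me3 without H3K27me3, contains 11; the Twist1 promoter (chr12:33957421-33957670, forward strand), whose window held both marks, contains 18.
Col3a1: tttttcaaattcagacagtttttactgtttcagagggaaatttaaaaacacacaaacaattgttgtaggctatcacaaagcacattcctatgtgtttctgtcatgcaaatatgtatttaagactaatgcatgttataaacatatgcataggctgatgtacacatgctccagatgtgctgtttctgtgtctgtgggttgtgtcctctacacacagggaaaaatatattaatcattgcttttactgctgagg
Col1a2: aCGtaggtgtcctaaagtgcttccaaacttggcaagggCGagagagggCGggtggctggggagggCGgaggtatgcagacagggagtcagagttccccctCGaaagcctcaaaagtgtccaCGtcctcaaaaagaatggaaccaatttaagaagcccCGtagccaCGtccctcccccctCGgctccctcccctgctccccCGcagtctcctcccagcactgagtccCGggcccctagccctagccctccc
Twist1: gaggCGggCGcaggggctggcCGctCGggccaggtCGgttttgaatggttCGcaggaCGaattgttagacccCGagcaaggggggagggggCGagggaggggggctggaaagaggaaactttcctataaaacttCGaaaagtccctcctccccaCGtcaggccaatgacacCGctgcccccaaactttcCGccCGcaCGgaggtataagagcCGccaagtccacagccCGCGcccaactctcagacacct

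Among 32851 promoters of the same length in the table, the median was 6 CpG (interquartile range 2 to 16) and 7.87% contained 0, as Col3a1 did. Col1a2 had more CpG than 64.4% of them and Twist1 more than 78.3%. The promoter given for Prrx1 contained 4, more than 37.8%. GC content was 35.2% for Col3a1, 47.6% for Prrx1, 62.0% for Col1a2 and 62.4% for Twist1, against a median of 52.4%. The Prrx1 window had more H3K27me3 than that of Col1a2, and its promoter had fewer CpG in this stretch. Col1a1 and Thy1, whose windows also held H3K27me3, had no matched sequence. A relation between CpG number and H3K27me3 was not tested. Motifs were searched on both strands. GGGCGG, the GC box, occurred 2 times in Col1a2 and 1 time in Twist1, and in 32.7% of all promoters. CCAAT occurred 1 time in each of Col1a2 and Twist1, and in 33.8% of all promoters. TATAAA occurred 1 time in each of Col3a1 and Twist1, and in 12.4%. These matches are letters in a sequence and were not tested as binding sites.

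The type I collagen genes differed from each other. In the Col1a1 window (chromosome 11, 94780000 to 94825000), the strongest H3K4me3 peak spanned 94797510 to 94799958, 2449 bp, with a score of 2885.15. The score is the one the authors deposited for each peak and is read only within a list. This peak scored higher than 72.7% of H3K4me3 peaks, and was wider than 92.3% of them. In the H3K4me3 list 24.2% of peaks share a score of exactly 3100, a tie at the percentile of 74.6, and 1.2% score above it, up to 3233.06. An H3K27me3 peak of 1566 bp at 94796344 to 94797909, with a score of 328.82, overlapped its lower end by 400 bp, or 16.3% of the H3K4me3 peak. A minor H3K4me3 peak of 212 bp at 94794929 to 94795140, with a score of 55.25, overlapped neither H3K27 mark.

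H3K27ac in the Col1a1 window lay apart from H3K4me3. Its 2 peaks spanned 94788581 to 94790287 and 94790330 to 94791190, with scores of 1215.66 and 343.71, above 87.9% and 67.6% of the H3K27ac list. Both sat inside 1 H3K4me1 peak of 3960 bp at 94788543 to 94792502, whose score of 805.06 exceeded 98.0% of H3K4me1 peaks. The nearer H3K27ac peak ended 6.32 kb before the strongest H3K4me3 peak and 3.74 kb before the minor one, which lay 2.43 kb from the H3K4me1 peak. H3K4me1 peaks away from H3K4me3 by more than 1 kb, with H3K27ac and without H3K27me3, have the features of active distal elements, a state found in 18.6% of all distal H3K4me1 peaks. With H3K4me3 excluded within 5 kb, the Col1a1 region was no longer distal and 1 such element, at the end of the Col1a2 window, was left in the windows. The acetylated Col1a1 region was the only one of the 6 windows with H3K27ac wholly inside. In all, the Col1a1 window held 6 H3K4me1 peaks that covered 29.4% of it, more than in 96.0% of tiles of equal width, and each scored above the median of its list. In GRCm38.p6 the protein-coding neighbours of Col1a1 are Gm11544 and Sgca, and the gene to which the acetylated region belongs was not determined.

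At Col1a2 (chromosome 6, 4440000 to 4500000), H3K4me3 was strong and neither H3K27 mark lay on it. The main peak spanned 4455060 to 4456419, 1360 bp, with a score of 3035.48, and a second of 454 bp with a score of 152.29 lay just before it, at 4454576 to 4455029. An H3K4me1 peak of 2550 bp, with a score of 324.52, covered both. The nearest H3K27me3 peak was 740 kb from the main H3K4me3 peak and the nearest H3K27ac peak 43.4 kb. That H3K27ac peak, of 1559 bp with a score of 426.88, straddled the upper end of the window at 4499834 to 4501392 and had 0.17 kb inside it. It sat on an H3K4me1 peak of 3211 bp with a score of 548.14, above 94.6% of its list. The next protein-coding gene on that side in GRCm38.p6 is Casd1.

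The Col3a1 window (chromosome 1, 45350000 to 45415000) held 0 peaks of all 4 marks. Of tiles of the same 65 kb, 41.6% also held none, so an empty window is common in these lists. The nearest peak was one of H3K27ac, 23.6 kb before the window, of 396 bp with a score of 53.43, close to the lowest score of the list, 50. Peaks of H3K4me1, H3K4me3 and H3K27me3 were 143, 144 and 219 kb beyond the other end. Col5a2, which encodes a chain of type V collagen, is the neighbour of Col3a1 in GRCm38.p6. An absent peak means that no enrichment passed the authors' threshold, and a weaker signal cannot be told from none without read counts.

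Thy1 (chromosome 9, 43835000 to 43870000) carried a well-marked H3K4me3 peak with very weak H3K27me3. The H3K4me3 peak spanned 43851014 to 43852551, 1538 bp, with a score of 2245.73, above 66.8% of its list. The H3K27me3 peak on it was 459 bp long at 43851997 to 43852455 and scored 50.86, above 4.63% of its list. Without H3K27me3 peaks below the median score, Thy1 had no H3K27me3. H3K4me1 covered the whole H3K4me3 peak with a peak of 4214 bp and a score of 470.89, and a second H3K4me1 peak of 1416 bp lay 3.66 kb from it. H3K27ac was absent from the window, but a peak scoring 221.71 lay 5.04 kb beyond its upper end. That H3K27ac peak overlapped an H3K4me3 peak (score 2008.86) and lay inside an H3K4me1 peak (score 1396.15). On that side Usp2 is the next protein-coding gene in GRCm38.p6.

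Both transcription factor genes showed a different picture, with strong H3K4me3 inside runs of H3K27me3. In the Twist1 window (chromosome 12, 34620000 to 34665000), 14 H3K27me3 peaks covered 15.35 kb, or 34.1% of the window, more than in 99.8% of tiles of equal width. Their scores ran from 56.35 to 1885.79 with a median of 158, and 12 of the 14 were above the median of the list. The strongest, at 34645369 to 34650449, was 5081 bp long, wider than 98.9% of H3K27me3 peaks. Joined across gaps of up to 5 kb, the 14 peaks formed a domain of 21.2 kb, from 34637821 to 34659062. It ranked 114 of 7561 domains by covered length and was 1 of 215 that covered 10 kb or more. These ranks include the sex chromosomes. Of the 7561 domains 4655 were autosomal, with a median covered length of 0.636 kb against 0.492 kb for all. The annotated length of Twist1 itself is 2161 bp in GRCm38.p6, so the domain reached well beyond the gene.

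H3K4me3 at Twist1 was split into 8 peaks, all of which overlapped H3K27me3. The strongest spanned 34642324 to 34644145, 1822 bp, with a score of 3003.63, and H3K27me3 covered 53.1% of it. A second broad peak of 2691 bp at 34651314 to 34654004 scored 1752.77 and lay toward the other end of the domain. The remaining 6 scored between 54.41 and 734.25. All 8 and 4 H3K4me1 peaks lay in the domain, with 0 H3K27ac peaks. The nearest H3K27ac to the strongest H3K4me3 peak was 144 kb away, farther than for 93.5% of all H3K4me3 peaks. On the lower side of the window, 5.34 to 5.66 kb beyond it, a further group of H3K4me1, H3K4me3 and H3K27me3 peaks had scores of 360.91, 1575.68 and 103.87. Ferd3l is the protein-coding neighbour on that side in GRCm38.p6, and Hdac9 on the other.

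At Prrx1 (chromosome 1, 165160000 to 165260000), all peaks lay in the upper part of the window, and the gene runs on the reverse strand in RefSeq. Its strongest H3K4me3 peak spanned 165241708 to 165245596 and had a score of 3100, the value shared by many peaks. At 3889 bp it was wider than 99.1% of H3K4me3 peaks. H3K27me3 covered 69.5% of it and H3K4me1 all of it. The window held 7 H3K27me3 peaks over 7.35 kb, with scores from 50.31 to 1102.52 and a median of 66.6. Of the 7, 3 were above the median of the list. The strongest H3K27me3 peak was 3323 bp long at 165239017 to 165242339. Together the 7 peaks formed a domain of 13.3 kb that ranked 297 of 7561. The nearest H3K27ac was 64.8 kb from the strongest H3K4me3 peak.

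**Figure D2:**
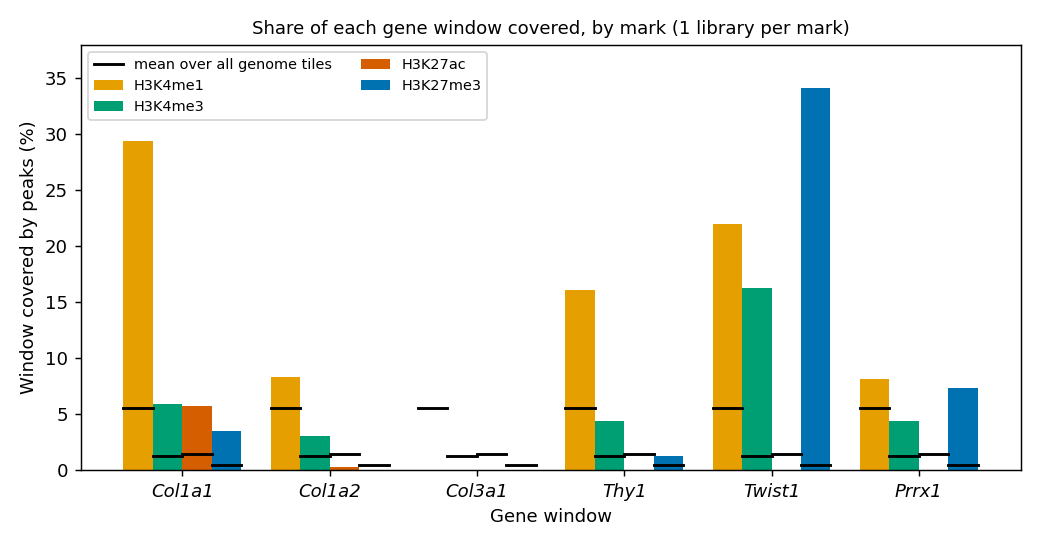
Percent of each gene window covered by peaks of each mark, 1 bar per mark, with a black line at the mean over genome tiles of the same width. H3K27me3 reaches 34.1% at Twist1 and 7.35% at Prrx1, H3K4me1 reaches 29.4% at Col1a1, and H3K27ac exceeds its line at Col1a1 alone.

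**Figure D3:**
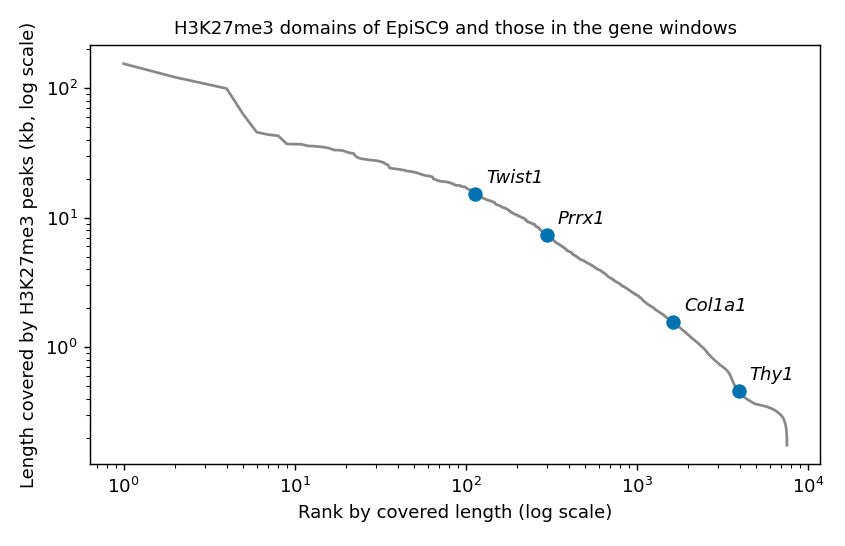
Covered length of all 7561 H3K27me3 domains, sex chromosomes included, against their rank, both on log axes. The 4 domains of the gene windows are shown as points. The Twist1 domain stands at rank 114 with 15.35 kb, Prrx1 at 297 with 7.35 kb, Col1a1 at 1631 with 1.57 kb and Thy1 at 3942 with 0.46 kb.

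The 5 strongest H3K4me3 peaks, 1 for each window that held the mark, allow the genes to be set side by side as promoter-like regions. Their scores lay between 2245.73 at Thy1 and 3100 at Prrx1. None of the 5 overlapped H3K27ac. Over all 28941 H3K4me3 peaks, 50.8% had no overlapping H3K27ac. Strong peaks differ from the whole list: of 9610 H3K4me3 peaks that scored at least as high as the Thy1 peak, 19.9% had none. This second comparison was chosen after the results were seen. The distance to the nearest H3K27ac peak was 6.32 kb at Col1a1, 22.5 kb at Thy1, 43.4 kb at Col1a2, 64.8 kb at Prrx1 and 144 kb at Twist1. Between 83.6% and 97.8% of equally strong peaks lay nearer to H3K27ac than these did.

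H3K27me3 overlapped 4 of the 5 strongest peaks, against 16.6% of all H3K4me3 peaks and 12.3% of those as strong as the Thy1 peak. The 4 became 3 with scores below the list medians left out, and also 3 at an overlap of 50% of the shorter peak. Of the H3K4me3 peaks as strong as the Thy1 peak, 10.2% had H3K27me3 alone, 2.07% both H3K27 marks and 9.75% neither. The extent of overlap was graded, from 16.3% of the peak at Col1a1 and 29.8% at Thy1 to 53.1% at Twist1 and 69.5% at Prrx1. Over the 4518 H3K4me3 peaks with H3K27me3 and without H3K27ac, the median share covered by H3K27me3 was 65.1% (interquartile range 33.7 to 99.1). The Col1a1 and Thy1 values were below this range, and the Twist1 and Prrx1 values lay within it. The 4518 peaks were not matched for width, and the 4 peaks were wider than 71.8% (Thy1) to 99.1% (Prrx1) of all H3K4me3 peaks. Col1a2 was the only one of the 5 without H3K27me3. H3K4me1 overlapped all 5, as it did 83.2% of all H3K4me3 peaks and 93.9% of the strong ones. It covered 63.0% of the Twist1 peak, 89.9% of the Col1a1 peak and 100% of the other 3.

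**Figure D4:**
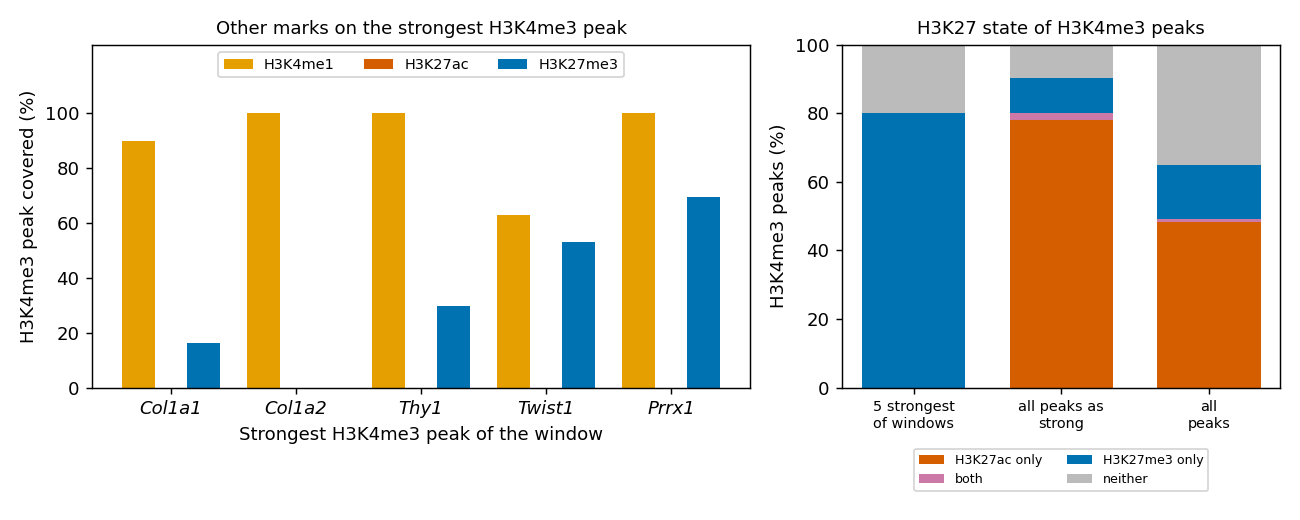
Left, percent of the strongest H3K4me3 peak of each window covered by H3K4me1, H3K27ac and H3K27me3. Right, H3K27 state of the 5 peaks, of the 9610 H3K4me3 peaks at least as strong and of all 28941. H3K27ac is at 0 for each of the 5 on the left, and the class with H3K27ac alone makes up 78.0% of equally strong peaks on the right.

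Counting every H3K4me3 peak in the windows, 12 of 15 overlapped H3K27me3 alone, a class of 15.6% of all H3K4me3 peaks. The other 3, of which 2 were at Col1a2 and 1 at Col1a1, overlapped neither H3K27 mark, a class of 35.2%. None was in the class with H3K27ac alone, which held 48.2% of all H3K4me3 peaks, or in the class with both, which held 1.03%. Because 8 of the 15 lay in the single Twist1 domain, they are not separate examples. With scores below the list medians left out, 6 H3K4me3 peaks remained in the windows, of which 4 overlapped H3K27me3 alone and 2 neither mark.

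Of the 19 H3K4me1 peaks, 7 were distal, with no H3K4me3 within 1 kb. The acetylated one at Col1a1 and the acetylated one at the end of the Col1a2 window were also the strongest of the 7. The other 5 carried neither H3K27 mark, a state of 80.5% of all distal H3K4me1 peaks. Their scores ran from 68.8 at Prrx1 to 301.99 at Col1a1. Twist1 had no distal H3K4me1, and no distal peak of the windows carried H3K27me3, which was found without H3K27ac on 0.846% of distal peaks in the series and with it on 0.0508%.

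**Figure D5:**
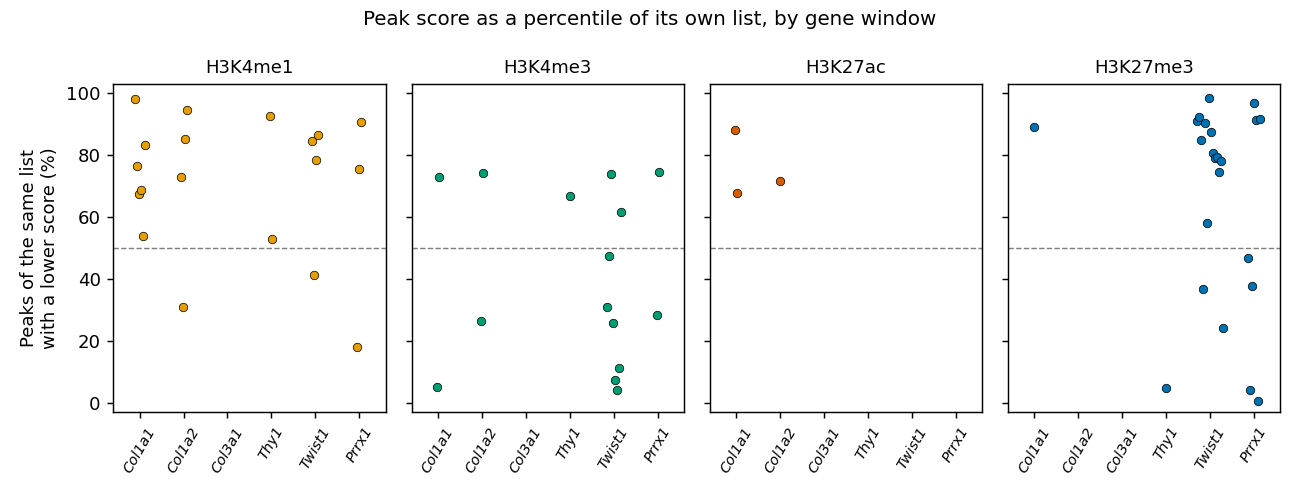
Score of each peak in the windows as the percent of peaks of its own list with a lower score, by gene and mark; the dashed line is the list median. H3K4me1 lies above the median in 16 of 19 peaks and H3K27me3 in 16 of 23, H3K4me3 in 6 of 15, where scores tied at 3100 give a percentile of 74.6, and H3K27ac in 3 of 3.

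The part of feeder cells in the Col1a1 H3K27ac and in the Col1a2 H3K4me3 was not tested. H3K4me3 and H3K27me3 in the same cells cannot be told apart from a mixture of cells with either mark, since all 4 lists come from whole cultures.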

How the data were processed

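Peaks in windows around 6 genes were analysed in 4 libraries of EpiSC9 cells, 1 per histone mark, grouped by the antibody in the labels. The authors deposited a list of peak intervals with a score per peak for each library, on mm9. Per the submitters' processing notes, the tools were Bowtie 0.12.9, MACS 1.4 and Cufflinks, and their roles are not stated there. How peaks were called (control, threshold, scale of the score) is not given in the sources used here. Read depth is unknown, so scores were ranked within a list only.

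Window positions were set by hand and were not checked against an annotation of mm9. RefSeq tables of GRCm38.p6 gave promoter sequences, gene lengths and the order of neighbouring genes. A peak belonged to a window, and marks to each other, at an overlap of at least 1 bp. H3K27me3 peaks were joined within 5 kb and H3K27ac peaks within 12.5 kb. Tiles of 52.5 kb, or of a window's own width, ran from each chromosome's start to the last peak end over the lists. A percentile is the percent of a list, or of tiles, with a lower value. All 6 genes and all their peaks are covered. The genes and lists were chosen with earlier results of these data known. Python 3.11.15, numpy 2.4.6, pandas 2.3.3, scipy 1.17.1 and matplotlib 3.10.9 were used, and the interval functions were tested on simulated data. Peaks are given as 1-based positions.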

Additional observations from a re-analysis of the deposited data

How the results depend on the processing

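No paired analysis was possible because each mark had 1 library, and no setting leaves out a library. Windows with H3K4me1 and with H3K4me3 stayed at 5 under stricter scores, equal list lengths and windows cut or widened by 10 kb. Windows with H3K27ac numbered 1 when windows were cut by 10 kb at each end or when peaks had to lie wholly inside, since the Col1a2 peak straddles the window end, and 3 when windows were widened. Windows with H3K27me3 numbered 3 with scores below the median left out. With an overlap of 50% of the shorter peak, the H3K4me3 peaks with neither H3K27 mark were 5 in the windows and 2 among the strongest. With scores below the list medians left out, H3K4me3 peaks with H3K27me3 alone numbered 4, since fewer peaks were left, and the strongest peaks with neither mark 2. H3K4me3 with H3K27ac stayed at 0 in each overlap, distance and score setting run. It was not counted in widened windows. Widened by 10 kb, the Thy1 window takes in an H3K4me3 peak (score 2008.86) that overlaps an H3K27ac peak (score 221.71). Distal H3K4me1 with H3K27ac numbered 1 when H3K4me3 was excluded within 5 kb, which removes the Col1a1 element.

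Against peaks as strong as those of the windows, a setting added after the data were examined, the classes of all H3K4me3 peaks were 78.0% with H3K27ac alone, 10.2% with H3K27me3 alone, 2.07% with both and 9.75% with neither. Tiles with H3K4me1, H3K4me3, H3K27ac and H3K27me3 were 47.9%, 28.9%, 30.2% and 11.9% at the windows' own widths, and 49.9%, 28.5%, 30.2% and 9.33% on autosomes. Among tiles with H3K4me3 they were 91.0% for H3K4me1, 67.1% for H3K27ac and 27.5% for H3K27me3. Joined within 1 kb, the longest H3K27me3 region covered 11.24 kb at Twist1 and 7.05 kb at Prrx1.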
